A study of Mus musculus with 24 samples.

Results

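Insulin signalling in the liver was followed through 10 genes, Insr, Irs1, Irs2, Pik3r1, Akt2, Foxo1, Igfbp1, Ppp1r3b, Ppp1r3c and Socs3, chosen by gene name from the 24137 genes counted in 24 whole mouse livers. Each liver gave 1 RNA-seq library, and all 10 genes passed the filter on low counts in every comparison. HF_TZD_KO mice (n = 5) were on the diet named HFCF for 34 weeks, were labelled as lacking PPARγ, a nuclear receptor for fatty acids, in hepatocytes, and received rosiglitazone maleate. HF_TZD_C mice (n = 5) had the same diet and drug with the control genotype. HF_KO mice (n = 5) had the HFCF diet and the knockout label without the drug, and HF_C mice (n = 5) had the HFCF diet and the control genotype. LF_C mice (n = 4) had the control genotype and a low fat diet that the labels call LFCF. The knockout was induced after 24 weeks, so it lasted 10 weeks, and rosiglitazone, a thiazolidinedione drug that activates PPARγ, was given in the diet for the last 8 weeks. The series links the HFCF diet to steatohepatitis, a fatty liver with inflammation. The sources used here do not give how the knockout was induced.

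Insulin binds its receptor on hepatocytes, which phosphorylates the insulin receptor substrates. These recruit phosphoinositide 3-kinase, and the lipid that this kinase makes activates AKT. AKT keeps the transcription factor FOXO1 out of the nucleus, which silences genes such as Igfbp1, and it favours glycogen storage, for which glycogen-targeting subunits bring protein phosphatase 1 to glycogen synthase. The pathway is the main signal that lowers glucose output by the liver after a meal. Of the 10 genes, Socs3 encodes an inhibitor of this chain, and the others encode parts or readouts of it. A transcript level says nothing about the phosphorylation that carries the signal.

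The promoter of Igfbp1 is the textbook example of an insulin response sequence, so the 250 bases before the RefSeq start site (GRCm38.p6) are shown for it and for the other genes of the set with the same core, CAAAACA or its reverse complement TGTTTTG. Each runs 5′ to 3′ on the strand of its gene, with the core in capitals. The regions are chr11:7197537-7197786 on the plus strand for Igfbp1, chr1:82291440-82291689 on the minus strand for Irs1 and chr8:11008930-11009179 on the minus strand for Irs2.
Igfbp1: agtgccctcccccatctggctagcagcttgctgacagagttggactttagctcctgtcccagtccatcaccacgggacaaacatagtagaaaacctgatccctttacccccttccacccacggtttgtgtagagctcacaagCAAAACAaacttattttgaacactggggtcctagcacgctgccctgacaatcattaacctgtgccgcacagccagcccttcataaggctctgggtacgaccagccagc
Irs1: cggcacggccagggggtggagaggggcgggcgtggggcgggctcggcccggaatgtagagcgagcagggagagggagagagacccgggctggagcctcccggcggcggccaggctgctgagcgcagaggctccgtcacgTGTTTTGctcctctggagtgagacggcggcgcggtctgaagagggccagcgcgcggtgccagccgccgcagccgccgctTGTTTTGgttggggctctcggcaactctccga
Irs2: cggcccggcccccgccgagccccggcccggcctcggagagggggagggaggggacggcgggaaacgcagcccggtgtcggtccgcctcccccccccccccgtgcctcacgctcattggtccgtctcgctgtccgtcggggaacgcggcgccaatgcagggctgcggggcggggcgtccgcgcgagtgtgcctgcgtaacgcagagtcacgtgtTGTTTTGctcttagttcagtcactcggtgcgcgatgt

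The core begins 108 bases before the start in Igfbp1, 111 and 32 bases before it in Irs1, and 37 bases before it in Irs2. Searched on both strands, CAAAACA was held by 3 of the 12 promoters of the 8 genes of the set with a promoter in the table, and by 5.56% of all 32851 promoters of that length. The forkhead letters GTAAACA, searched on both strands, were in 0 of the 12 and in 3.17% of all. The STAT letters TTCNNNGAA, the same on both strands, were in 2 of the 12 (Akt2 as TTCGGGGAA and Socs3 as TTCTTAGAA) and in 7.02% of all. No motif letters of 1 kind overlapped those of another in these promoters. A match is a description of the letters, not of binding, and the 3 genes with CAAAACA did not move together in the results below.

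The libraries held 19.5 to 28.7 M counted reads. At this depth the smallest count of the 10 genes in any library was 186 reads, for Socs3. Pparg, the gene named as knocked out, stood higher rather than lower in the libraries labelled knockout (57.7 to 70.2 CPM in HF_KO against 28.3 to 35.5 in HF_C, and 31.7 to 62.0 in HF_TZD_KO against 24.5 to 30.6 in HF_TZD_C). CPM is the read count relative to library size after scaling. The log2 fold change of Pparg was 0.99 for HF_KO over HF_C (SE 0.08, edgeR adjusted p = 4.5e-05). It was 0.79 for HF_TZD_KO over HF_TZD_C (SE 0.16, edgeR adjusted p = 0.0042). A gene-level count includes exons outside a deletion and other liver cells, and the reason for the higher count was not tested. Each direction follows the labels, and these counts do not show the loss that the labels name. HF_TZD_KO replicate 5 stood apart on the first principal component (44.4% of the variance), at -56.9 against -3.92 to 45.5 for the other 19 libraries on the HFCF diet and -106 to -62.6 for LF_C. Several results of the 10 genes are given with and without it, and those of the wider list and the cell type markers only with it. Hepatocyte markers were abundant in all groups, and adipocyte markers summed to at most 0.358 CPM in any library.

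Per kilobase of gene length and averaged over the 24 libraries, Igfbp1 was the highest at 42.3 CPM per kb. Ppp1r3b followed at 33.7, Akt2 at 27.1, Insr at 22.2 and Pik3r1 at 16.9 CPM per kb. Ppp1r3c stood at 12.5, Foxo1 at 7.97, Socs3 at 6.81, Irs2 at 5.13 and Irs1 at 1.72 CPM per kb. The substrates were thus the lowest on this scale, and the target gene Igfbp1 the highest over the 24 libraries. By group its rank differed. In LF_C Igfbp1 stood at 19.4 CPM per kb, below Ppp1r3b (41.0), Akt2 (30.0), Insr (25.7) and Ppp1r3c (22.2). In HF_TZD_KO it stood at 36.2, below Ppp1r3b at 45.5. In HF_TZD_C, HF_KO and HF_C the mean of Igfbp1 was the highest. In HF_KO that mean (34.2 CPM per kb, against 29.9 for Ppp1r3b) rested on replicate 1. That library stood at 105 CPM, and the others at 28.9 to 57.5 CPM. The ratio of the highest to the lowest library was 9.31 for Igfbp1, 5.95 for Ppp1r3c and 4.30 for Socs3, against 1.60 for Insr, 1.64 for Pik3r1 and 1.30 for Akt2. With groups ordered by mean level, neighbouring groups were separate only for Akt2 (HF_TZD_C below LF_C) and Ppp1r3c (HF_TZD_C below HF_C), and all other neighbours overlapped in their ranges.

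**Figure D1:**
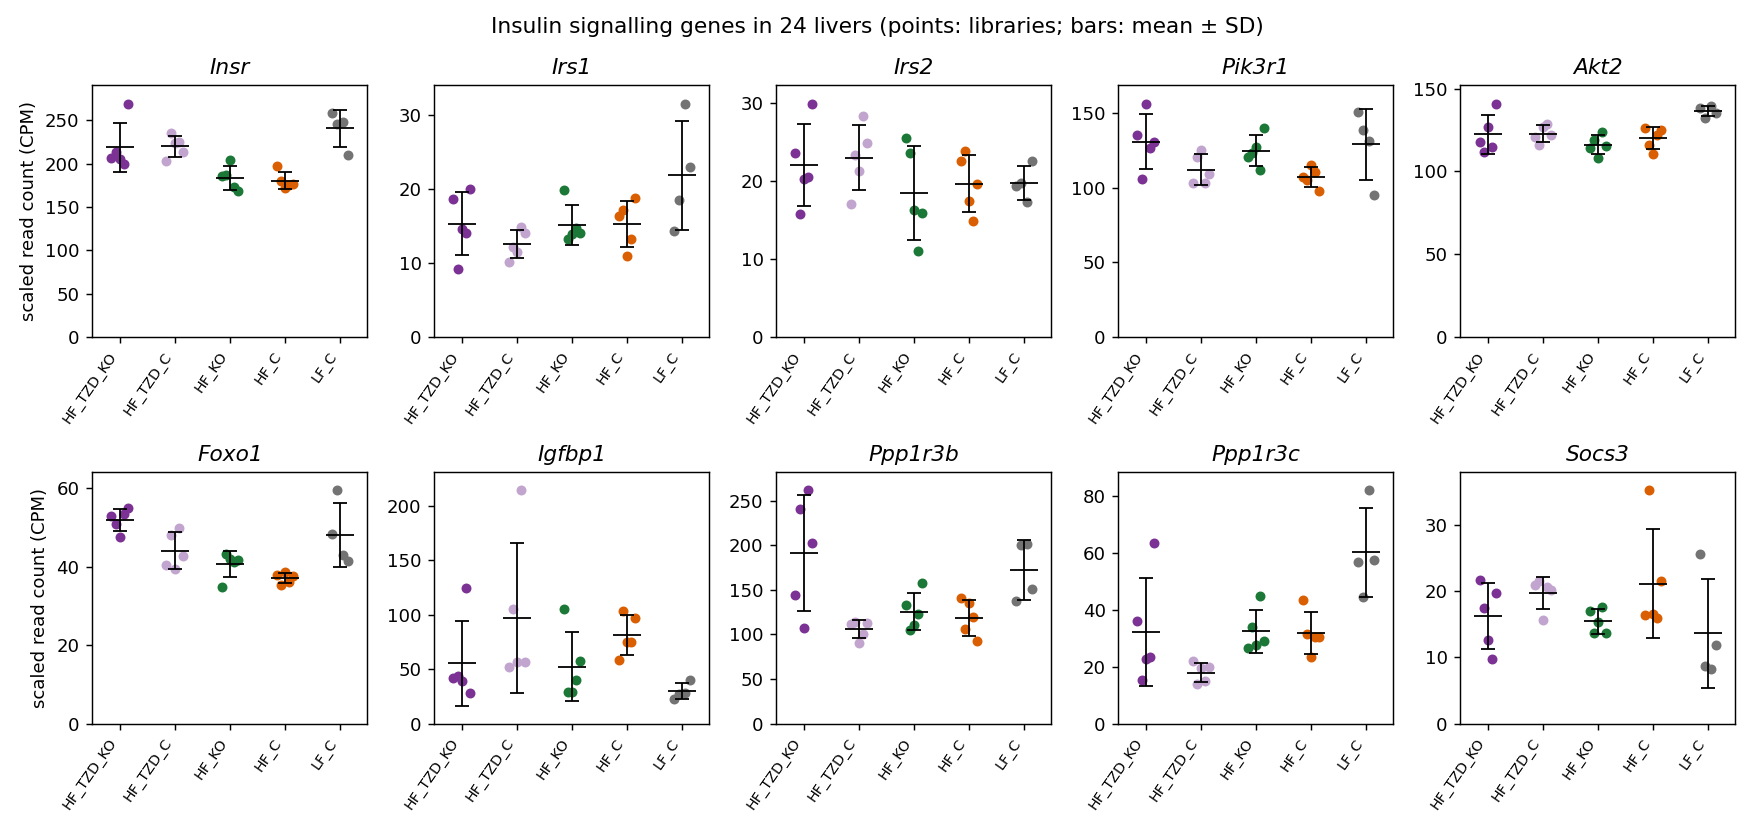
Scaled read counts (CPM, linear axes from 0) of the 10 genes, 1 point per library, with the mean and SD of each group. Igfbp1 spans 23.0 to 214 CPM, while Akt2 stays between 108 and 141 CPM in all 24 libraries.

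The 5 comparisons of groups and the test of the difference between drug effects called different numbers of the 10 genes (edgeR quasi-likelihood test, Benjamini-Hochberg adjusted p under 0.05 over all genes tested). HF_C against LF_C called 6 of 10, Igfbp1 higher and Insr, Akt2, Foxo1, Ppp1r3b and Ppp1r3c lower, where 40.6% of all 14772 genes were called (21.4% higher, 19.2% lower). HF_TZD_C against HF_C called 2 of 10, Insr higher and Ppp1r3c lower, where 5.30% of all genes were called (2.69% higher, 2.61% lower). HF_TZD_KO against HF_KO called 1 of 10, Foxo1, higher, where 0.735% were called (0.426% higher). HF_TZD_KO against HF_TZD_C called 1 of 10, Ppp1r3b, higher, where 16.3% were called (8.53% higher, 7.81% lower). HF_KO against HF_C called 0 of 10 (0 with DESeq2), where 1.02% were called. At an unadjusted p under 0.05 it had 2 of the 10, where 1648 of all 14844 genes had such a p. The difference between the rosiglitazone effects in the libraries labelled knockout and in controls called 0 of 10 (0 with DESeq2), where 2.45% were called. At an unadjusted p under 0.05 that test had 2 of the 10, where 2464 of all 15365 genes had such a p. The comparisons share groups, so their values stand side by side and are not independent.

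**Figure D2:**
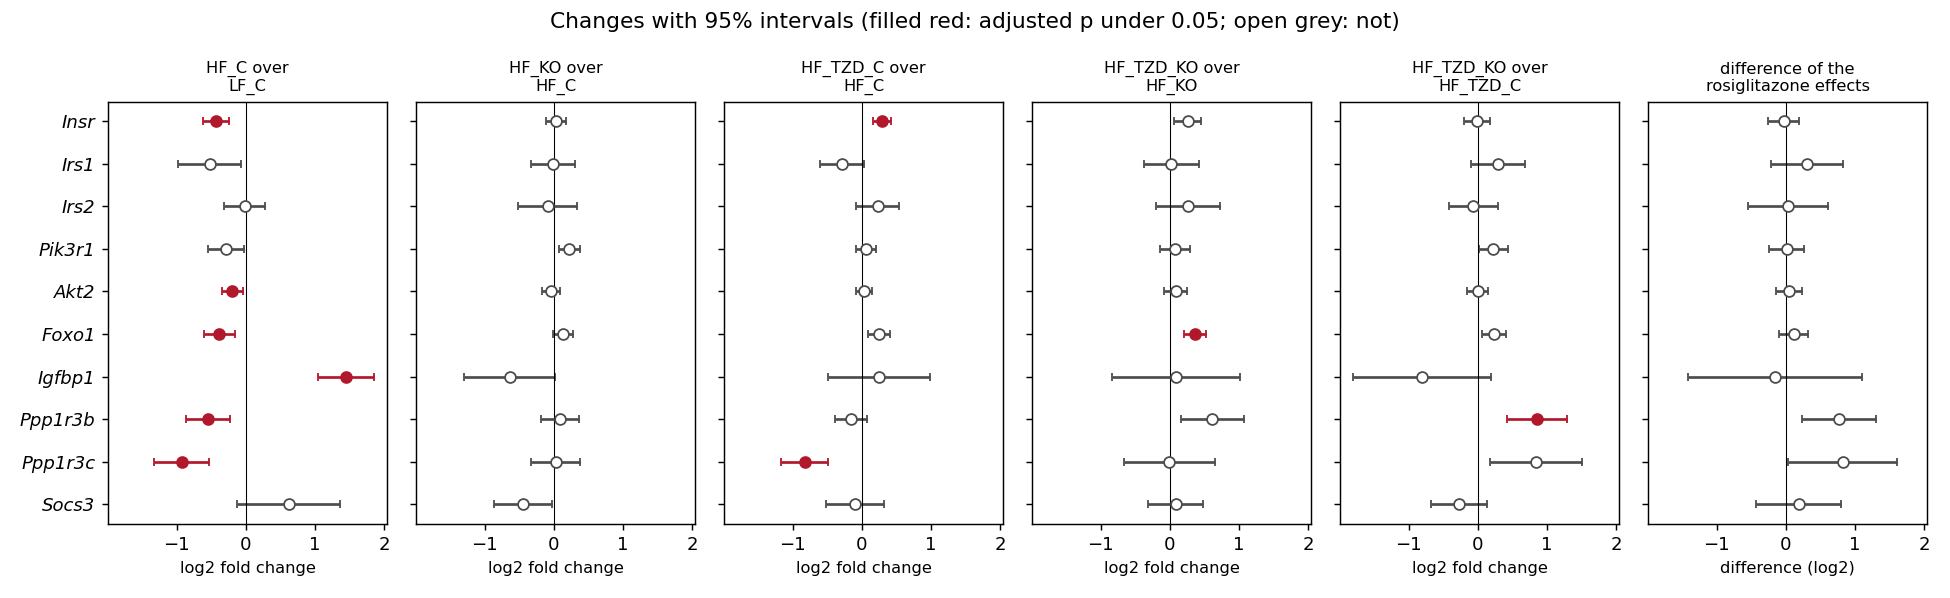
Log2 fold change of each gene in the 5 comparisons, and the difference of the rosiglitazone effects in the last panel, with 95% intervals. Filled red points passed an adjusted p of 0.05 (6, 0, 2, 1, 1 and 0 genes from left to right), and open grey points did not.

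Insr encodes the insulin receptor (ENSMUSG00000005534, GRCm38 chromosome 8, 3150922 to 3279617). Its level was 207, 213, 205, 199 and 269 CPM in HF_TZD_KO and 203, 235, 224, 225 and 213 CPM in HF_TZD_C. It was 186, 186, 204, 173 and 169 CPM in HF_KO, 197, 180, 171, 175 and 176 CPM in HF_C, and 258, 246, 248 and 210 CPM in LF_C. All HF_C libraries lay below all LF_C libraries, and all HF_TZD_C libraries lay above all HF_C libraries. Insr fell on the HFCF diet (HF_C over LF_C, log2 fold change -0.43, SE 0.08, edgeR adjusted p = 0.0017, 1.35-fold lower). It rose with rosiglitazone in control mice (HF_TZD_C over HF_C, 0.29, SE 0.06, edgeR adjusted p = 0.0105, 1.22-fold higher). In the libraries labelled knockout the same contrast gave 0.26 (SE 0.09, edgeR adjusted p = 0.192), and 0.17 without HF_TZD_KO replicate 5. The difference between the drug effects was -0.03 (95% interval -0.25 to 0.19), so the effects were not told apart. Knockout label against control gave 0.03 without the drug (95% interval -0.11 to 0.17) and -0.01 with it (-0.19 to 0.18).

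Irs1 and Irs2 encode the receptor substrates that pass the signal to phosphoinositide 3-kinase. Irs1 (ENSMUSG00000055980, chromosome 1, 82233101 to 82291416) stood at 18.6, 9.23, 14.6, 14.0 and 19.95 CPM in HF_TZD_KO and at 10.2, 12.1, 11.5, 14.8 and 14.0 CPM in HF_TZD_C. It stood at 19.9, 13.2, 13.9, 14.7 and 14.0 CPM in HF_KO, 16.3, 17.2, 11.0, 13.3 and 18.7 CPM in HF_C and 14.3, 18.6, 31.5 and 23.0 CPM in LF_C. Every group overlapped the next, and the widest spread was in LF_C. The HF_C over LF_C change of Irs1 was -0.52 (SE 0.21, edgeR adjusted p = 0.0659), with -0.68 (adjusted p = 0.0191) without LF_C replicate 1 and -0.29 (adjusted p = 0.254) without LF_C replicate 3, the highest of its group.

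Irs2 (ENSMUSG00000038894, chromosome 8, 10986980 to 11008458) ranged from 15.8 to 30.0 CPM in HF_TZD_KO (median 20.5), from 17.1 to 28.4 CPM in HF_TZD_C (median 23.4), from 11.0 to 25.6 CPM in HF_KO (median 16.2), from 14.8 to 23.8 CPM in HF_C (median 19.7) and from 17.3 to 22.6 CPM in LF_C (median 19.5). The groups overlapped throughout. Its change was -0.02 for HF_C over LF_C (95% interval -0.31 to 0.28), 0.23 for HF_TZD_C over HF_C (-0.08 to 0.54) and 0.26 for HF_TZD_KO over HF_KO (-0.20 to 0.73). The last value was 0.13 without HF_TZD_KO replicate 5 and 0.41 without HF_KO replicate 1. None of these intervals is narrow enough to show that the gene did not move.

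Pik3r1 encodes the p85α regulatory subunit of phosphoinositide 3-kinase (ENSMUSG00000041417, chromosome 13, 101680563 to 101768217). Its level was 135, 106, 156, 126 and 130 CPM in HF_TZD_KO and 103, 120, 125, 103 and 109 CPM in HF_TZD_C. It was 121, 123, 127, 112 and 140 CPM in HF_KO, 107, 105, 115, 111 and 97.5 CPM in HF_C, and 151, 139, 131 and 95.1 CPM in LF_C. Libraries labelled knockout had the higher mean with and without the drug, but the ranges overlapped. The log2 fold change was 0.23 for HF_KO over HF_C (SE 0.07, edgeR adjusted p = 0.176) and 0.23 for HF_TZD_KO over HF_TZD_C (SE 0.10, edgeR adjusted p = 0.140). The second was 0.29 (adjusted p = 0.0348) without HF_TZD_KO replicate 2 and 0.15 (adjusted p = 0.32) without HF_TZD_KO replicate 3. HF_C over LF_C gave -0.28 (SE 0.12, edgeR adjusted p = 0.0805), and -0.41 without LF_C replicate 4, the lowest of its group (adjusted p = 0.00143).

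Akt2 encodes the main AKT kinase of insulin action in the liver (ENSMUSG00000004056, chromosome 7, 27591552 to 27640826). Its level was 118, 112, 127, 115 and 141 CPM in HF_TZD_KO and 121, 116, 127, 129 and 122 CPM in HF_TZD_C. It was 114, 119, 108, 124 and 115 CPM in HF_KO, 126, 116, 111, 122 and 125 CPM in HF_C, and 139, 132, 139 and 136 CPM in LF_C. All HF_C libraries lay below all LF_C libraries, by a small amount. Akt2 fell on the HFCF diet by 0.20 on the log2 scale (SE 0.07, edgeR adjusted p = 0.0432, 1.14-fold lower), and the call was lost under 12 of 16 alternatives and turned to 0.07 with library totals. The other comparisons gave between -0.04 and 0.08, and the 95% intervals of the 2 rosiglitazone effects were -0.08 to 0.15 in control mice and -0.08 to 0.25 under the knockout label, with the drug groups given over the untreated ones.

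Foxo1 encodes the transcription factor that insulin restrains (ENSMUSG00000044167, chromosome 3, 52268337 to 52350109). Its level was 53.0, 50.9, 47.5, 53.5 and 54.9 CPM in HF_TZD_KO and 40.5, 48.2, 39.4, 49.9 and 42.7 CPM in HF_TZD_C. It was 34.8, 43.2, 42.1, 41.3 and 41.8 CPM in HF_KO, 37.9, 35.5, 38.5, 36.2 and 37.6 CPM in HF_C, and 48.5, 59.5, 43.1 and 41.5 CPM in LF_C. HF_C had the lowest mean, below every library of LF_C and of HF_TZD_C, and HF_TZD_KO lay above every library of HF_KO. Foxo1 fell on the HFCF diet (HF_C over LF_C, -0.39, SE 0.10, edgeR adjusted p = 0.0102, 1.31-fold lower). It rose with rosiglitazone in the libraries labelled knockout (HF_TZD_KO over HF_KO, 0.36, SE 0.07, edgeR adjusted p = 0.0473, 1.29-fold higher, 5 of 5 libraries above the HF_KO mean). That call was lost when any 1 of the 10 libraries was left out (0.31 to 0.39, adjusted p 0.0576 to 0.122). Those fits called 0 to 223 of all genes, against 107 with all 10 libraries. Without HF_TZD_KO replicate 5 the Foxo1 change was 0.34 (edgeR adjusted p = 0.0576). Its call was also lost with library totals (0.25) and without the filter on low counts (0.35). In control mice the drug effect was 0.25 (SE 0.07, edgeR adjusted p = 0.0663), with no overlap between HF_TZD_C and HF_C, and it passed with DESeq2 (0.25, adjusted p = 0.0264) and without HF_TZD_C replicate 3 (0.30, adjusted p = 0.0388). The drug effects differed by 0.11 (95% interval -0.10 to 0.32).

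Igfbp1 encodes a secreted protein that binds insulin-like growth factors, and its transcription in the liver is known to be switched off by insulin (ENSMUSG00000020429, chromosome 11, 7197782 to 7202546). Its level was 41.4, 43.3, 38.9, 125 and 28.0 CPM in HF_TZD_KO and 52.1, 105, 56.6, 214 and 56.6 CPM in HF_TZD_C. It was 105, 28.9, 29.3, 40.2 and 57.5 CPM in HF_KO, 58.6, 103, 74.6, 74.6 and 96.5 CPM in HF_C, and 23.0, 26.7, 28.2 and 40.1 CPM in LF_C. All HF_C libraries exceeded all LF_C libraries, while each of the groups with the drug or the knockout label held 1 or 2 libraries far above the rest. Igfbp1 rose on the HFCF diet (HF_C over LF_C, 1.46, SE 0.19, edgeR adjusted p = 0.000114, 2.74-fold higher), the largest change among the 10 genes in any comparison.

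No other comparison called Igfbp1. HF_KO over HF_C gave -0.64 (SE 0.30, edgeR adjusted p = 0.468), and -1.06 with an adjusted p of 0.0473 without HF_KO replicate 1. HF_TZD_KO over HF_TZD_C gave -0.81 (SE 0.46, edgeR adjusted p = 0.263), and -1.36 with an adjusted p of 0.0391 without HF_TZD_KO replicate 4. Without HF_TZD_C replicate 4, the control library at 214 CPM, that second value was -0.29 (adjusted p = 0.686), and without HF_TZD_KO replicate 5 it was -0.65. Rosiglitazone gave 0.25 in control mice (HF_TZD_C over HF_C, 95% interval -0.48 to 0.99), which turned to -0.26 without HF_TZD_C replicate 4 and lay between 0.16 and 0.41 without any other library. Under the knockout label it gave 0.09 (HF_TZD_KO over HF_KO, -0.83 to 1.01), with -0.46 without HF_TZD_KO replicate 4 and 0.51 without HF_KO replicate 1. The direction of both drug effects thus changed with the library left out.

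Ppp1r3b encodes the glycogen-targeting subunit that is abundant in liver, and Ppp1r3c a related subunit found in several tissues. Ppp1r3b (ENSMUSG00000046794, chromosome 8, 35375741 to 35388124) stood at 144, 241, 107, 262 and 203 CPM in HF_TZD_KO and at 111, 114, 90.7, 101 and 113 CPM in HF_TZD_C. It stood at 133, 105, 111, 123 and 158 CPM in HF_KO, 141, 106, 135, 119 and 92.1 CPM in HF_C, and 137, 200.2, 201 and 151 CPM in LF_C. HF_TZD_KO was the most variable group, and 4 of its 5 libraries lay above all of HF_TZD_C. Ppp1r3b fell on the HFCF diet (HF_C over LF_C, -0.55, SE 0.15, edgeR adjusted p = 0.0102, 1.46-fold lower, with overlapping ranges). It rose in HF_TZD_KO over HF_TZD_C (0.85, SE 0.20, edgeR adjusted p = 0.0119, 1.81-fold higher), and by 0.83 without HF_TZD_KO replicate 5 (adjusted p = 0.0166). HF_KO over HF_C gave 0.09 (95% interval -0.19 to 0.36).

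The rosiglitazone effect on Ppp1r3b was 0.61 in the libraries labelled knockout (SE 0.21, edgeR adjusted p = 0.180) and -0.16 in control mice (SE 0.11, edgeR adjusted p = 0.457). The difference between them was 0.77 (SE 0.26, 95% interval 0.24 to 1.31, edgeR adjusted p = 0.118) and did not pass. It passed without HF_TZD_KO replicate 3, the lowest of its group (0.93, adjusted p = 0.0238), and was 0.76 without replicate 5 (adjusted p = 0.156).

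Ppp1r3c (ENSMUSG00000067279, chromosome 19, 36731737 to 36736653) stood at 36.1, 15.5, 22.6, 23.4 and 63.7 CPM in HF_TZD_KO and at 21.9, 13.8, 19.4, 14.9 and 19.9 CPM in HF_TZD_C. It stood at 26.5, 34.0, 27.8, 44.9 and 29.2 CPM in HF_KO, 43.6, 31.7, 23.3, 30.7 and 30.3 CPM in HF_C, and 57.0, 44.5, 82.1 and 57.7 CPM in LF_C. The control groups were separate from each other, with HF_TZD_C lowest, then HF_C, then LF_C. Ppp1r3c fell on the HFCF diet (HF_C over LF_C, -0.93, SE 0.18, edgeR adjusted p = 0.00185, 1.90-fold lower). It fell with rosiglitazone in control mice (HF_TZD_C over HF_C, -0.83, SE 0.16, edgeR adjusted p = 0.00805, 1.77-fold lower), a call lost when all 24 libraries shared 1 estimate of the spread (adjusted p = 0.105). In control livers Ppp1r3c was thus lower with the drug and lower on the diet, whereas Insr was higher with the drug and lower on the diet.

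Under the knockout label the rosiglitazone effect on Ppp1r3c was -0.01 (HF_TZD_KO over HF_KO, 95% interval -0.67 to 0.66), and -0.41 without HF_TZD_KO replicate 5, whose 63.7 CPM was the highest on the HFCF diet. HF_TZD_KO over HF_TZD_C gave 0.84 (SE 0.31, edgeR adjusted p = 0.0821), 0.44 without that library, and 1.02 with an adjusted p of 0.0249 without HF_TZD_KO replicate 2. The difference between the drug effects was 0.82 (95% interval 0.03 to 1.61, edgeR adjusted p = 0.289), and 0.42 without replicate 5.

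Socs3 encodes an inhibitor of cytokine and insulin receptor signalling that inflammatory cytokines induce (ENSMUSG00000053113, chromosome 11, 117966079 to 117970047). Its level was 21.7, 17.5, 12.6, 9.80 and 19.7 CPM in HF_TZD_KO and 20.9, 21.5, 15.6, 20.6 and 20.1 CPM in HF_TZD_C. It was 17.0, 13.6, 15.3, 17.6 and 13.7 CPM in HF_KO, 16.5, 35.2, 16.5, 16.0 and 21.6 CPM in HF_C, and 25.6, 8.77, 8.19 and 11.9 CPM in LF_C. In LF_C, replicate 1 stood far above the other 3 libraries, and in HF_C replicate 2 was the highest of all 24. Socs3 was called in no comparison. HF_C over LF_C gave 0.62 (SE 0.34, edgeR adjusted p = 0.167), with 1.13 (adjusted p = 0.00791) without LF_C replicate 1 and 0.38 (adjusted p = 0.366) without HF_C replicate 2. HF_KO over HF_C gave -0.45 (SE 0.20, edgeR adjusted p = 0.408), and -0.19 without HF_C replicate 2.

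A further pair of contrasts over the 20 libraries on the HFCF diet, chosen after seeing the data, averaged each effect over the other factor. Rosiglitazone averaged over both genotypes called 2 of the 10 genes, both higher, where 5.42% of all 15365 genes were called (2.30% higher). Foxo1 rose by 0.31 (SE 0.05, edgeR adjusted p = 0.00116) and Insr by 0.27 (SE 0.05, edgeR adjusted p = 0.00433), and both stayed called without any 1 library. Ppp1r3c gave -0.42 (edgeR adjusted p = 0.230), and -0.62 without HF_TZD_KO replicate 5 (adjusted p = 0.014). The knockout label averaged with and without the drug called 3 of 10, all higher, where 17.0% of all genes were called (8.86% higher). Ppp1r3b gave 0.47 (SE 0.13, edgeR adjusted p = 0.0143), an average of unlike values, 0.09 without the drug and 0.85 with it. Pik3r1 gave 0.22 (SE 0.06, edgeR adjusted p = 0.0129) and Foxo1 0.18 (SE 0.05, edgeR adjusted p = 0.0148). Scaled by library totals, the 3 averages were 0.37, 0.12 and 0.08 in the same order, and none passed. On that scale Akt2 at -0.13 (edgeR adjusted p = 0.0105) and Socs3 at -0.46 (edgeR adjusted p = 0.0219) passed instead. In this contrast hepatocyte markers were called higher in 8 of 8 (median 0.59) and recruited macrophage markers lower in 3 of 6 (median -0.60), and their part in the result was not tested.

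Over the 10 genes the median log2 fold change of HF_C over LF_C was -0.33, against -0.03 for all genes, and 5 of 10 had groups that did not overlap, where 33.6% of all genes had. With library totals in place of scaling factors, the median of all genes moved to 0.24, the split of calls went to 5309 higher and 886 lower (3168 and 2835 with scaling factors), and only Igfbp1 and Ppp1r3c of the 10 stayed called, at 1.73 and -0.67. Changes are therefore relative to the scaled median gene. Hepatocyte markers were called lower in 7 of 8 (median -0.79), with sums of 44948 to 53538 CPM in HF_C against 76306 to 109812 in LF_C and none at 0. Recruited macrophage markers were called higher in 6 of 6 (188 to 298 CPM against 32.9 to 52.0), as were cholangiocyte markers in 6 of 6 (552 to 1252 CPM against 38.8 to 91.9). Alb made up most of the hepatocyte sum (mean 36897 CPM in HF_C against 73024 in LF_C). Spp1 made up most of the cholangiocyte sum (mean 715 CPM against 51.7), beside Krt19, Krt7, Epcam, Sox9 and Cftr. The part of these markers in the members' changes was not tested, and in whole liver fewer cells of a type and less RNA per cell cannot be told apart.

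The median of the 10 genes was 0.11 for HF_TZD_KO over HF_TZD_C, against 0.00 for all genes. None of the 10 had separate groups there, where 14.3% of all genes had. Hepatocyte markers were called higher in 8 of 8 (median 0.95), with sums of 73615 to 106890 CPM in HF_TZD_KO against 37465 to 47423 in HF_TZD_C. Recruited macrophage markers were called lower in 2 of 6 (58.6 to 245 CPM against 228 to 374). For HF_TZD_C over HF_C, 2 of 8 hepatocyte markers were called lower (37465 to 47423 CPM against 44948 to 53538), and 3 of the 10 genes had separate groups (Insr, Foxo1 and Ppp1r3c), where 6.07% of all genes had. For HF_TZD_KO over HF_KO, 1 of 8 was called higher (73615 to 106890 CPM against 57154 to 65821), and 1 of the 10 genes, Foxo1, had separate groups, where 4.32% of all genes had. For HF_KO over HF_C none of the hepatocyte markers was called, although the sums did not overlap (57154 to 65821 CPM against 44948 to 53538). The part of these markers in the results was not tested.

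**Figure D3:**
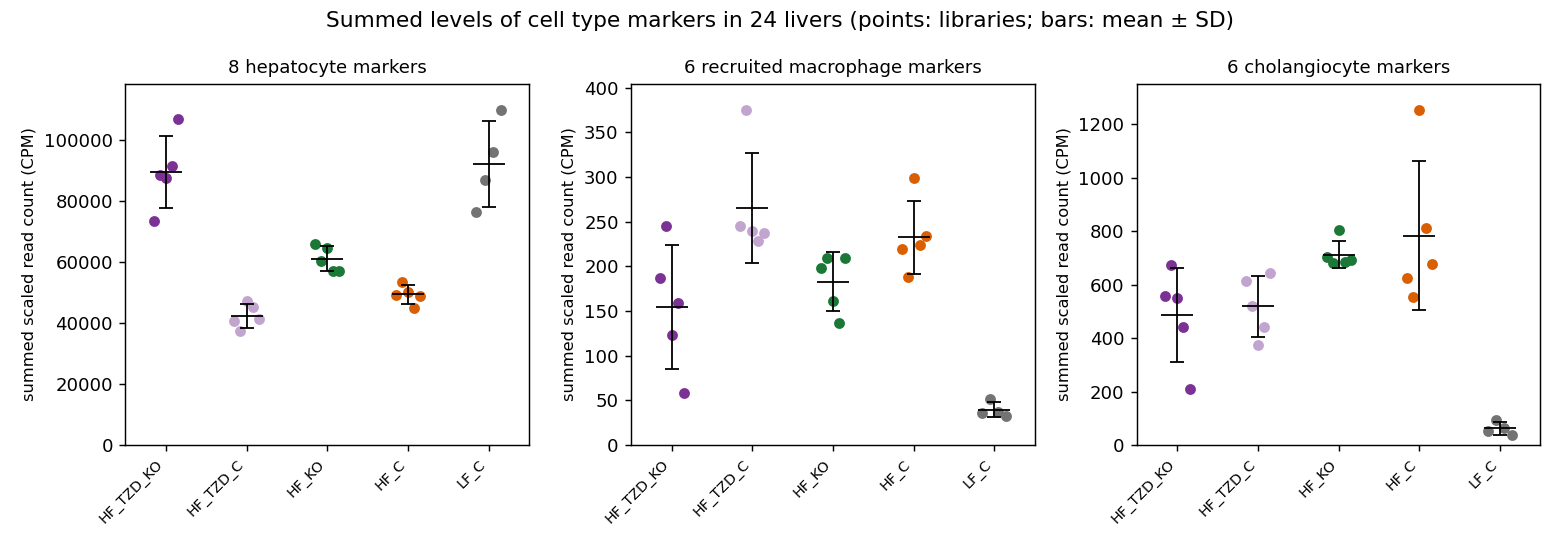
Summed scaled read counts (CPM, linear axes from 0) of hepatocyte, recruited macrophage and cholangiocyte markers, 1 point per library, with the mean and SD of each group. The hepatocyte sum is 73615 to 106890 CPM in HF_TZD_KO and 76306 to 109812 CPM in LF_C. Most of it is Alb, with means of 70487 and 73024 CPM. By mean, Ttr, Serpina1a, Hnf4a, Asgr1 and Tat are lower in HF_TZD_KO than in LF_C, and Apoa1 and Cps1 higher. Most of the cholangiocyte sum on the HFCF diet is Spp1. The macrophage sum of HF_TZD_KO replicate 5 (58.6 CPM) is the lowest on that diet.

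A wider list of 83 genes of the pathway, the 10 included, was read from the same tests. HF_C over LF_C called 12 higher and 23 lower of 83, where 40.6% of all genes were called. Of the 14 inhibitors, 5 were called higher and 4 lower. Among those that rose were Grb10, an adaptor that binds and inhibits the receptor (1.59), Prkcd, a kinase that can phosphorylate the receptor substrates (0.80, edgeR adjusted p = 5.43e-05), and Trib3, a pseudokinase that binds AKT (0.84). Igfbp7, which binds insulin-like growth factors and insulin, rose by 1.38. Of the 14 glycogen genes, 5 fell and 2 rose, and Gys2, liver glycogen synthase, fell by 0.80 on the log2 scale (SE 0.12, edgeR adjusted p = 0.000247). The FOXO1 targets of glucose output fell too, Pck1 by 1.33 (SE 0.22, edgeR adjusted p = 0.000588) and G6pc by 0.91 (SE 0.17, edgeR adjusted p = 0.00158), in the opposite direction to Igfbp1. Igfbp4, another binding protein, fell by 0.61. Srebf1 (a lipogenic factor that insulin induces) gave 0.27 and Pygl (liver glycogen phosphorylase) -0.31, and neither passed.

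**Figure D4:**
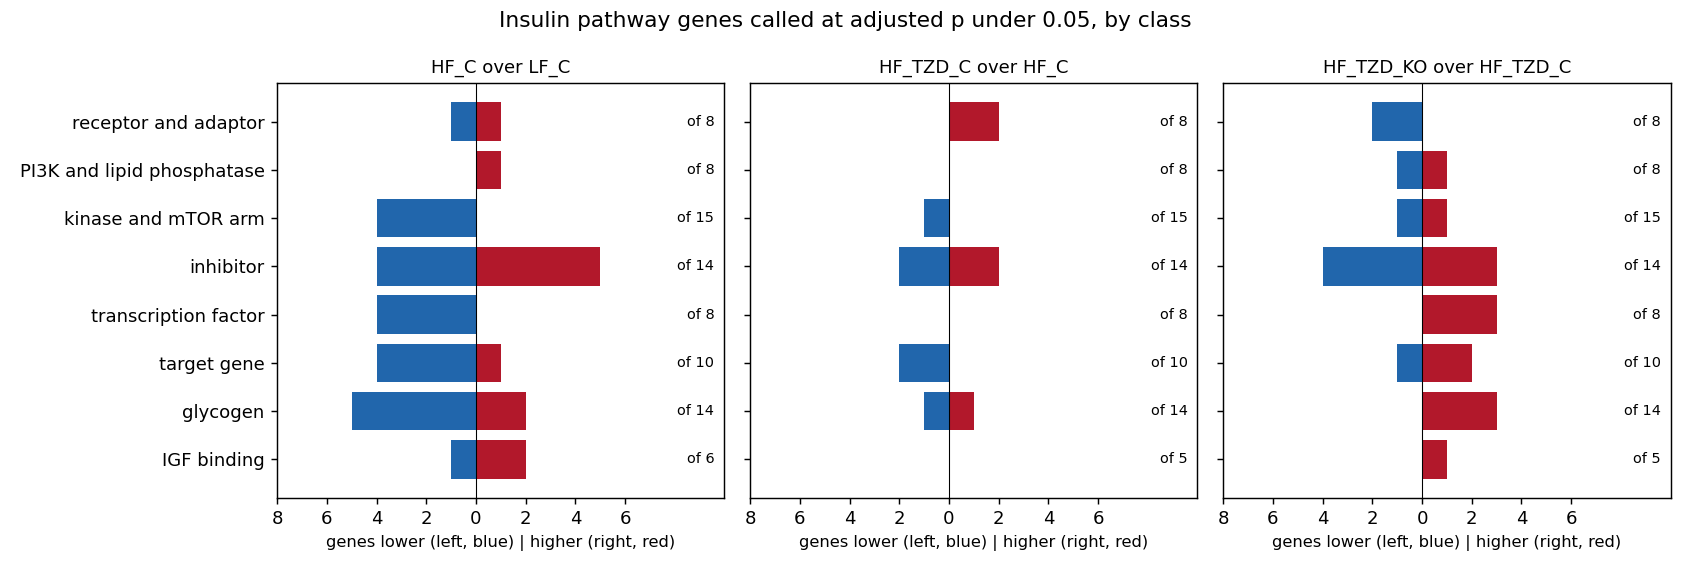
Number of insulin pathway genes called lower (left, blue) and higher (right, red) at an adjusted p under 0.05 in 8 classes of the list, with the number tested at the right of each row. The diet comparison called 35 of 83 genes, rosiglitazone in control mice 11 of 82 and the knockout label on the drug 23 of 82.

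HF_TZD_C over HF_C called 5 of 82 genes of the list higher and 6 lower, where 5.30% of all genes were called. Prkce, a kinase linked to receptor inhibition (0.50), Gys2 (0.32, adjusted p = 0.0104) and Socs2, of the same family as Socs3 (1.07), rose with rosiglitazone. The receptor phosphatase Ptprf (-0.34), the receptor inhibitor Grb14 (-0.41) and Tsc1, which restrains mTOR (-0.27), fell. G6pc gave -0.04, Pck1 -0.23, Trib3 0.16, Srebf1 0.10 and Pygl -0.10, and none of these passed.

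HF_TZD_KO over HF_KO called 1 of 82, Foxo1, where 0.735% of all genes were called. Gys2 gave 0.27, Srebf1 0.20, Pck1 0.48, G6pc -0.38, Trib3 -0.18 and Pygl 0.18 there, and none of these passed. HF_KO over HF_C called 2 of 83, Grb14 higher (0.24, edgeR adjusted p = 0.0277) and Trib3 lower (-0.63, edgeR adjusted p = 0.00945), where 1.02% of all genes were called. Gys2 gave -0.12, Srebf1 -0.15, Pck1 -0.36, G6pc -0.43 and Pygl 0.11 in that comparison, and none of these passed.

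HF_TZD_KO over HF_TZD_C called 14 of 82 higher and 9 lower, where 16.3% of all genes were called. Apoc3, a lipoprotein component whose gene FOXO1 activates (0.86), the transcription factor Foxo3 (0.55) and Grb14 (0.63) rose. Trib3 (-0.97), Prkcd (-0.61) and Mlst8, a subunit of both mTOR complexes (-0.76), fell. Pygl rose by 0.38 and G6pc fell by 0.78, while Pck1 gave 0.34, Gys2 -0.17 and Srebf1 -0.06 and did not pass. The difference between the drug effects called 2 of 83, among them Apoc3 at 0.61 (edgeR adjusted p = 0.0415), where 2.45% of all genes were called. It gave 0.71 for Pck1, 0.28 for Pygl, 0.10 for Srebf1, -0.04 for Gys2, and -0.34 for both G6pc and Trib3 in that test, and none passed.

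Over the 24 libraries, the genes whose levels ran most like each of the 10 were taken from 11760 protein-coding genes by Pearson's r of log2 CPM, as a description in which libraries share groups and depth. Insr ran most like Foxp2, March6 and A1cf (0.88 to 0.89), and Akt2 most like Wdtc1, Suox and Got2 (0.86 to 0.89). Ppp1r3c ran like Fabp2, Cebpe and Ugp2 (0.88 to 0.89), of which Ugp2 makes the sugar donor for glycogen, and Irs1 like Ubr4, Adal and also Ugp2 (0.80 to 0.82). Ppp1r3b ran like Il6ra, Herpud1 and Cyp39a1 (0.79 to 0.86), and Pik3r1 like Hiatl1, Masp1 and Dnajb14 (0.81 to 0.84). Foxo1 ran like Cep85l, Fkbp5 and Fam46c (0.78 to 0.81), and Igfbp1 like Zbtb21, Ndrg1 and Ifrd1 (0.74 to 0.77). Socs3 ran like Cxcl1, Junb and Orm3 (0.74 to 0.78), and Irs2 had the weakest neighbours, Nup54, Zbtb39 and Zfp945 (0.63 to 0.70).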

How the data were processed

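Whole liver RNA was extracted with Trizol and sequenced without strand information, per the labels' protocols. Per the submitters' processing notes, the tools were STAR 2.6.1, HTSeq 0.6.1 and DESeq2, and the build GRCm38/mm10. The authors deposited 5 tables, 1 per comparison, with raw read counts, signal (counts divided by a size factor), FPKM, gene length, log2 fold changes and p-values. The counts were used here, joined by gene identifier (0 conflicting counts), with the deposited gene length for levels per kilobase; the deposited signal, FPKM, log2 and p-value columns were not used for results.

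Each comparison was fitted on its own libraries with edgeR 4.0.16 in R 4.3.3 (filterByExpr with a minimum count of 10 and total of 15, TMM scaling, quasi-likelihood F test, Benjamini-Hochberg adjustment). The fit was tried on simulated data with the same spread for every gene and changes larger than most of those called here. Its error rates for smaller changes were not tested. The difference between drug effects used the 20 libraries on the HFCF diet. SE is the log2 fold change over the square root of F. CPM values were scaled over all 24 libraries. Alternatives were RLE scaling, library totals, no filter, DESeq2 1.42.0, 1 fit of 24 libraries, a replicate block, a minimum mean of 2 CPM, and leaving out every library in turn. Members and lists were chosen with earlier results of these data known. All members are named, with the 4 wider-list genes of smallest adjusted p per direction, 7 fixed genes and the 3 genes most like each member, except that some wider-list genes are not reported here. Replicate pairs differed beyond counting error (chi-square per degree of freedom of at least 10.9). Promoters came from RefSeq (GRCm38.p6), and no expressed gene overlapped a member's exons in GENCODE.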

Additional observations from a re-analysis of the deposited data

Results flagged for a closer look

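Single libraries that stand apart from the rest of their group were sought with Dixon's test at the 95% level in 50 groups (10 genes in 5 groups), where chance gives about 1 in 20, and 5 were found. Igfbp1 stood at 125 CPM in HF_TZD_KO replicate 4, with the other 4 libraries between 28.0 and 43.3 CPM. Insr stood at 269 CPM in HF_TZD_KO replicate 5, with the others between 199 and 213 CPM. Foxo1 stood at 34.8 CPM in HF_KO replicate 1, with the others between 41.3 and 43.2 CPM. Irs1 stood at 19.9 CPM in the same HF_KO library, with the others between 13.2 and 14.7 CPM. Socs3 stood at 15.6 CPM in HF_TZD_C replicate 3, with the others between 20.1 and 21.5 CPM.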

How the results depend on the processing

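Of 1650 recomputed values of the 10 genes (80 results), 1502 kept their direction and their side of the threshold, 33 lost a call, 24 gained one and 90 changed sign without a call on either side (main value at most 0.253 in size). The only called value that reversed was Akt2 for HF_C over LF_C, at 0.0684 with library totals; the cause was not tested. The number of the 10 genes called moved as follows. HF_C over LF_C (6) gave 2 with library totals, 5 with RLE scaling, no filter or the 2 CPM minimum, 7 with the fit of 24 libraries and 5 to 7 without 1 library. HF_TZD_C over HF_C (2) gave 1 with the fit of 24 libraries, 3 with DESeq2 and 2 to 3 without 1 library. HF_TZD_KO over HF_KO gave 0 with library totals or no filter. HF_TZD_KO over HF_TZD_C gave 2 with library totals (1 higher and 1 lower), and 2 with DESeq2 or the fit of 24 libraries (both higher). Leaving out 1 library gave 0 to 1 for HF_KO over HF_C, 0 to 0 for HF_TZD_KO over HF_KO, 1 to 3 for HF_TZD_KO over HF_TZD_C and 0 to 1 for the difference of the drug effects.

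Among all genes, HF_KO over HF_C called 152 in the main test, 387 with DESeq2, 90 with the fit of 24 libraries and 64 to 186 without 1 library. HF_TZD_C over HF_C called 792, then 1257, 387 and 497 to 930. The difference called 376, then 745, 202 and 191 to 467. HF_TZD_KO over HF_KO called 107, against 670 with DESeq2, 440 with the fit of 24 libraries, 220 with library totals, 201 without the filter and 0 to 223 without 1 library. HF_TZD_KO over HF_TZD_C called 2387 of 14602, against 3656 with library totals and 3065 with DESeq2. It called 2875 of 15664 with the fit of 24 libraries and 1569 to 2695 without 1 library. HF_C over LF_C called 6003 of 14772, against 6195 with library totals and 5899 with RLE scaling. It called 5848 of 22464 with no filter, 4787 of 12000 with the 2 CPM minimum and 6887 of 15664 with the fit of 24 libraries. Without 1 library it called 5025 to 6123.

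Replicate numbers mark different mice, and same-numbered libraries did not deviate together (correlations -0.20 to 0.17). With them as a replicate block, HF_TZD_C over HF_C called 386 of 14937 genes and 1 of the 10 (Insr gave 0.29 with adjusted p = 0.0771). HF_TZD_KO over HF_KO called 0 of 14559 genes and 0 of the 10. HF_TZD_KO over HF_TZD_C called 2094 of 14602 genes and 3 of the 10, 2 higher and 1 lower. The difference called 236 of 15365 genes and 0 of the 10. Each of the 10 genes had at least 186 reads in every library. Groups held 4 or 5 mice.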
